A study of Mus musculus with 60 samples.

Results

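The messenger RNA levels of 10 heat shock protein genes were described in whole blood: the inducible HSP70 pair Hspa1a and Hspa1b, the J-domain protein gene Dnajb1, the HSP110 gene Hsph1, the small heat shock protein gene Hspb1, the HSP90 pair Hsp90aa1 and Hsp90ab1, the constitutive HSP70 gene Hspa8, and the mitochondrial pair Hspd1 and Hspe1. They were chosen by name as 10 of the 49315 genes in the count tables, and all 10 were tested in every comparison. The blood came from 60 male CD2F1 mice in 10 groups of 6, bought at 5 to 6 weeks of age. They were dosed by oral gavage for 6 days, with 2 doses a day 12 h apart. BIO 300 is a formulation of synthetic genistein, a soy isoflavone, and the control mice received its vehicle of methylcellulose and polyvinylpyrrolidone in water by the same route. Groups given vehicle, or BIO 300 at 50, 100 or 200 mg/kg, were bled on Day 0, when 24 h had passed since dosing ended, and separate groups on Day 1, when 48 h had passed. A further 12 mice, 6 with vehicle and 6 with 200 mg/kg, were exposed to 9.2 Gy of total body irradiation (TBI) from a cobalt source on Day 0, and their blood was taken on Day 1, 24 h after exposure. Blood was drawn once per mouse from the vena cava under isoflurane. In whole blood RNA fewer cells of a type and less RNA per cell cannot be told apart. The mice were housed 3 to a cage, the irradiated ones were exposed in 2 boxes of 6, and which box held which mice was not given in the sources used here. The p-values measure the spread between these mice.

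Heat shock proteins are chaperones that bind unfolded proteins and help them fold, refold or be degraded. HSP70 proteins take up client proteins that J-domain proteins such as DNAJB1 deliver, HSP110 proteins such as HSPH1 exchange their nucleotide, and HSP90 receives selected clients from them. When unfolded proteins build up, heat shock factor 1 is released from chaperones, binds heat shock elements made of repeated nGAAn units, and raises transcription of Hspa1a, Hspa1b, Dnajb1, Hsph1, Hspb1 and Hsp90aa1, while Hspa8 and Hsp90ab1 are made in most cells at all times. Hspd1 and Hspe1 encode the barrel and the lid of the mitochondrial chaperonin and share a promoter between them.

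The promoter letters are given first, to show which members carry heat shock element letters near their starts, and because the similarity of Hspa1a and Hspa1b limits how their counts can be read. RefSeq windows of GRCm38.p6 from 250 bases before to 50 bases after a start were at hand for 7 of the 10 members, 10 windows in all; Hspa8, Hsp90aa1 and Hsp90ab1 were the members without one. The motifs searched, on both strands, were GAANNTTC and TTCNNGAA, each a pair of facing units, which can overlap each other. Of 32817 promoter windows, 7.86% held the first, 8.51% the second and 15.1% either. Capitals mark the matches, and each sequence is written on the strand of its gene. Hspa1a and Hspa1b are shown over the 250 bases before their starts, chr17:34972157-34972406 and chr17:34959239-34959488, both on the minus strand.
Hspa1a: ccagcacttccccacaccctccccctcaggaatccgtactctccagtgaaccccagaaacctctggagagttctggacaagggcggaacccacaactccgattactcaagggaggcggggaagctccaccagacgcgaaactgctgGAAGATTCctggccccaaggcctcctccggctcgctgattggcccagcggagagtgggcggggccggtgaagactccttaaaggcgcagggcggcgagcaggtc
Hspa1b: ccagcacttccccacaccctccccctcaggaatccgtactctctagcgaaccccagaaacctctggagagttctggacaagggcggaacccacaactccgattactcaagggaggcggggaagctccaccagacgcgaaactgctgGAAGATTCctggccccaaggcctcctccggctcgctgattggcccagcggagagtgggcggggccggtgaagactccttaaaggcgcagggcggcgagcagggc
These 250 bases differed at 3 positions between the genes, and both held GAAGATTC beginning 104 bases before the start. Hspb1 is shown for a pair of separate matches at chr5:135887789-135887848 on the plus strand, and Hsph1 for the first of its 3 matches, at chr5:149636347-149636376 on the minus strand.
Hspb1: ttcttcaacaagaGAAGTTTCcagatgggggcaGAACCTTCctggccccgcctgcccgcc
Hsph1: agaatctTTCTCGAAggctcgagaagaagg
A stretch before the start of Hspe1 is shown as read toward that gene, at chr1:55088053-55088082 on the plus strand, because its units run on into each other.
Hspe1: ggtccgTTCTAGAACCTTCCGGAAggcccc
The capitals hold 4 units in a row. A run of at least 3 units was found in 0.603% of all windows, and among the members also in the windows of Hsph1, beginning 36 or 15 bases after the start. The starts of Hspd1 and Hspe1 lay 95 or 216 bases apart, depending on the Hspd1 transcript. The stretch shown lies before the start of Hspe1 and before 1 of the 2 starts of Hspd1, and it lies inside Hspd1 as counted from the other start. The motifs were not found in the window of that other start or in the 2 windows of Dnajb1, which says only that they are not in those windows. A match is a description of letters and not a measured binding site.

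The counting sets a limit on some members. Hspa1a (ENSMUSG00000091971, chr17:34969190-34972156) and Hspa1b (ENSMUSG00000090877, chr17:34956436-34959238) share 47.1% to 62.3% of their 50 to 100 base stretches, and reads were counted only where they mapped uniquely, so the split of reads between the genes is uncertain. Reads that fit both genes equally would be left out, so the levels of each gene, and of the pair summed, may be too low. Hspa1a also overlaps Gm20481 on the other strand. Hspd1 (chr1:55077835-55088243) and Hspe1 (chr1:55088132-55091307) overlap at their 5′ ends on opposite strands, and the introns of Hspa8 (chr9:40800984-40810087) hold 3 small nucleolar RNA genes.

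Libraries held 15099415 to 45589415 counts, with a median of 24877993.5. In 11 mice, all with odd animal numbers of 30 such mice, mRNA of Alb, the serum albumin gene made by hepatocytes, reached at least 100 CPM, the count scaled to a common library size, whereas no mouse with an even number exceeded 0.211 CPM. Each of these 11 libraries had all 12 hepatocyte markers above 0, and their part in any result was not tested beyond the fits without these mice given below. At 100 and 200 mg/kg on Day 1, 7 and 8 of 8 erythroid markers and all 8 platelet markers were higher than with vehicle, and all 8 B cell and all 8 T cell markers were lower. After TBI with vehicle, all 8 platelet and 7 of 8 neutrophil markers were higher than in vehicle-treated mice on Day 1, and all 8 B cell and all 8 T cell markers were lower.

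Levels are given as CPM, scaled by TMM (trimmed mean of M values) over all 60 mice. Per kilobase of exon, the constitutive Hsp90ab1 had the highest mean level over the 60 mice at 59.5 CPM per kb, followed by Hspa8 at 35.1 and Hsp90aa1 at 16 CPM per kb. Hspd1, Dnajb1, Hspe1 and Hsph1 lay between 8.32 and 3.36 CPM per kb. The remaining members were far below these, with Hspb1 at 0.57, Hspa1b at 0.39 and Hspa1a at 0.123 CPM per kb, and Hspa1a was counted 0 times in 3 mice and Hspb1 in 2. A count of 0 allows a level of up to 0.325 CPM in the library where this limit was highest, so low levels of Hspa1a and Hspb1 are known only roughly. When the 10 groups were put in order of their mean level, 2 of the 9 neighbouring pairs of Hspa1a and 2 of those of Hspa1b were separated by more than the larger of their SDs, against 1 each of Dnajb1, Hsp90aa1 and Hspe1. For Hsph1, Hspb1, Hsp90ab1, Hspa8 and Hspd1 no neighbours in that order differed beyond their spread. By mean level the 2 irradiated groups held the top places for Hspa1a, Hspa1b, Hspb1 and Hsp90aa1. Of these genes, only Hspa1a and Hspa1b had the irradiated vehicle-treated group above the next, unirradiated group by more than the larger SD. For Hsp90aa1 the means of that pair were 72.5 and 71.7 CPM, with a larger SD of 19.6 CPM. The next group there was unirradiated mice given the highest dose, on Day 1. By median the order of that Hsp90aa1 pair was the reverse, at 65.5 CPM with TBI and 71.5 CPM without it.

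**Figure D1:**
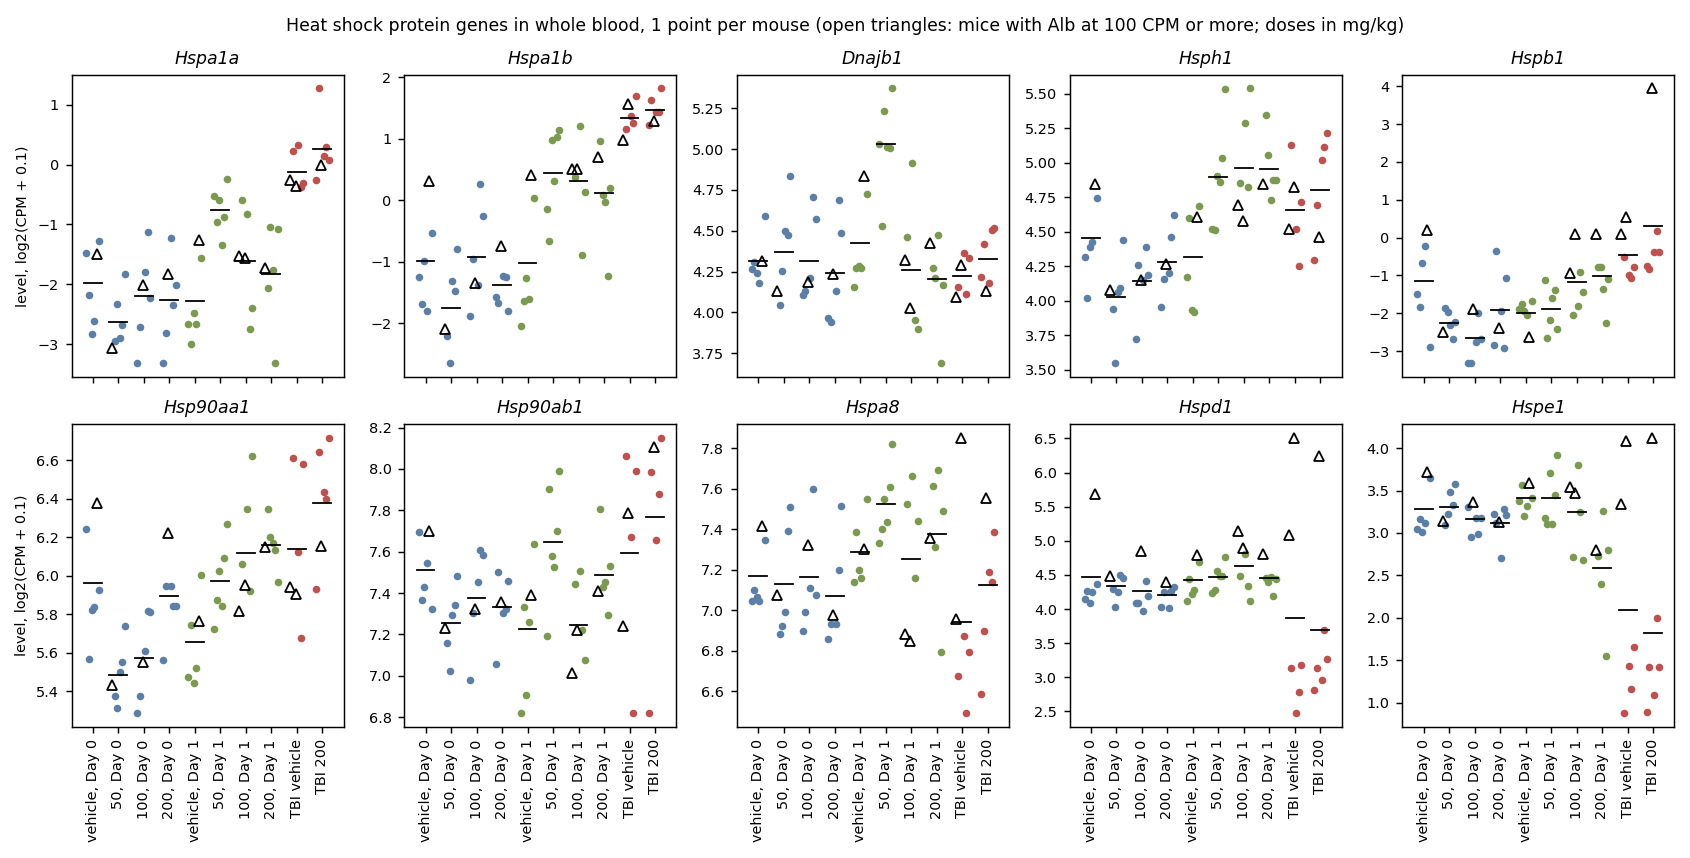
Level of each of the 10 genes in each mouse, as log2(CPM + 0.1), by group, with a horizontal line at the group mean of the 6 mice and open triangles for the 11 mice with Alb at 100 CPM or more. Both irradiated groups of Hspa1a and Hspa1b lie above every vehicle-treated mouse, and the triangles of the irradiated groups stand high for Hspd1 and Hspe1.

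The effect of TBI alone was read from irradiated and unirradiated vehicle-treated mice, and the inducible HSP70 genes were higher after it. Hspa1a ranged from 0.669 to 1.16 CPM (median 0.719) after TBI, from 0.0246 to 0.315 CPM (median 0.0684) in vehicle-treated mice on Day 1, and from 0.0405 to 0.312 CPM (median 0.186) on Day 0. All 6 irradiated mice lay above all 12 vehicle-treated mice. The log2 fold change was 2.65 ± 0.51 (SE) against Day 1, with an adjusted p = 0.00105 by edgeR's quasi-likelihood test, and 2.29 ± 0.44 against Day 0, with an adjusted p = 0.00141. Hspa1b, its neighbour on chromosome 17, ranged from 1.88 to 3.15 CPM (median 2.39) after TBI, from 0.143 to 1.23 CPM (median 0.274) on Day 1 and from 0.188 to 1.14 CPM (median 0.363) on Day 0. Again no irradiated mouse overlapped a vehicle-treated one. Its log2 fold changes were 2.23 ± 0.49 (adjusted p = 0.00274) and 2.44 ± 0.41 (adjusted p = 6.09e-04). With the counts of both genes added, so that it no longer mattered which copy a read was assigned to, the pair rose by 2.33 against Day 1 and 2.42 against Day 0 on the log2 scale. The median of all genes against Day 1 was 0.09 with TMM and -0.28 with total counts, and relative to it Hspa1a changed by 2.56 and 2.55 and Hspa1b by 2.15 and 2.19 under these scalings. Such distances hardly move by construction, because another scaling shifts all genes by about the same amount.

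The small heat shock protein gene Hspb1, whose product holds unfolded proteins and binds actin, also rose after TBI against Day 1. It ranged from 0.377 to 1.35 CPM (median 0.542) after TBI and from 0.063 to 0.211 CPM (median 0.165) in vehicle-treated mice on Day 1, without overlap, a log2 fold change of 2.08 ± 0.39 (adjusted p = 9.2e-04). Against vehicle on Day 0, where Hspb1 ranged from 0.0347 to 1.05 CPM (median 0.392), the groups overlapped and the log2 fold change of 0.65 ± 0.59 did not pass (adjusted p = 0.419). The Day 1 difference was 1.38 ± 0.37 (adjusted p = 0.00486) without the mice rich in Alb. Hsp90aa1, the stress-inducible HSP90, ranged from 51 to 97.5 CPM (median 65.5) after TBI and from 43.4 to 64.1 CPM (median 49.8) on Day 1, with a log2 fold change of 0.48 ± 0.18 (adjusted p = 0.0479). Its groups overlapped, and scaled to total counts the change was 0.03, so this small difference rested on the scaling. Dnajb1 (-0.25 ± 0.15), Hsph1 (0.29 ± 0.19), Hsp90ab1 (0.37 ± 0.22) and Hspa8 (-0.32 ± 0.21) did not pass against Day 1.

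Counting calls, defined as an adjusted p under 0.05 with an absolute log2 fold change over 1, 3 of 10 members were called higher and 0 lower after TBI against vehicle on Day 1, beside 36.0% of all genes tested, in either direction. Against vehicle on Day 0 2 members were called higher and 0 lower, beside 26.9% of all genes. An adjusted p under 0.05 alone was reached by 4 members against Day 1 (46.8% of all genes) and 2 against Day 0 (36.4%). The median log2 fold change of the members was 0.33 against Day 1, where that of all genes was 0.09. The share of members called was close to that of all genes in both comparisons. In the same mice, 6 of 10 immediate early genes, which respond to many stimuli within minutes and to handling of cells, were called higher against Day 1, with a summed level of 264 to 941 CPM after TBI and 149 to 197 CPM in vehicle-treated mice on Day 1. Their part in the rise of Hspa1a and Hspa1b was not tested.

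The mitochondrial pair gave a different picture with and without the mice rich in Alb. In vehicle-treated irradiated mice Hspd1 ranged from 5.48 to 90.9 CPM (median 8.85), and in vehicle-treated mice on Day 1 from 17.3 to 27.7 CPM (median 20.4). Of the 6 irradiated mice, 4 lay at 5.48 to 9.01 CPM, below every vehicle-treated mouse of Day 1, and the remaining mice, number 49 at 33.7 CPM and number 51 at 90.9 CPM, lay above all vehicle-treated mice of that day. These were the irradiated vehicle-treated mice with abundant Alb, at 3450 and 16100 CPM. Hspe1 split the same way, with 1.74 to 3.04 CPM in the 4 mice, 10.0 and 16.9 CPM in mice 49 and 51, and 9.06 to 11.9 CPM in vehicle-treated mice on Day 1. Over all 6 mice neither gene passed, with log2 fold changes of 0.19 ± 0.62 for Hspd1 (adjusted p = 0.815) and -0.84 ± 0.51 for Hspe1 (adjusted p = 0.182).

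Without the 11 mice rich in Alb, Hspd1 fell by 1.43 ± 0.18 on the log2 scale against Day 1 (4 against 5 mice, edgeR adjusted p = 8.73e-06) and by 1.27 ± 0.17 against Day 0 (adjusted p = 1.36e-05). Hspe1 fell by 2.07 ± 0.18 (adjusted p = 3.59e-07) and by 1.89 ± 0.20 (adjusted p = 1.98e-06). Hspa8, the constitutive cytosolic HSP70, was also lower in this subset against Day 1, by 0.55 ± 0.16 (adjusted p = 0.00873), and ranged from 90 to 117 CPM against 141 to 187 CPM. In these fits 5 members were called against Day 1, 3 higher and 2 lower, beside 44.2% of all genes, and 4 against Day 0, 2 higher and 2 lower, beside 41.1%. The HSP70 pair kept its direction, with 3.26 ± 0.49 for Hspa1a and 2.79 ± 0.41 for Hspa1b against Day 1.

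**Figure D2:**
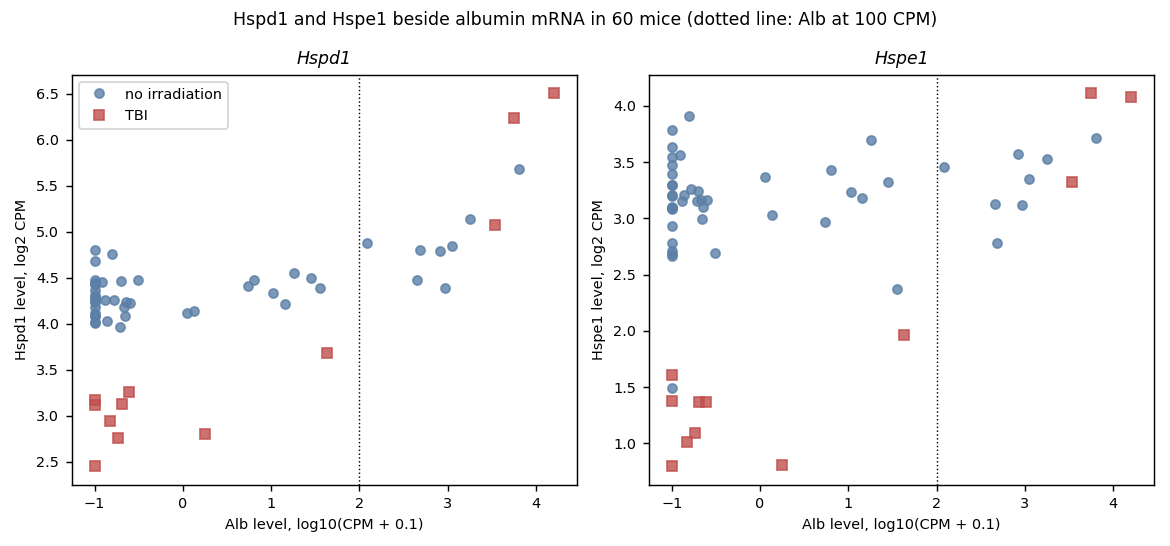
Level of Hspd1 and of Hspe1 (log2 CPM) against the level of Alb (log10 of CPM + 0.1) in 60 mice, with circles for unirradiated and squares for irradiated mice, and a dotted line at 100 CPM of Alb. The 9 irradiated mice left of the line lie at or below 12.8 CPM for Hspd1 and at or below 3.89 CPM for Hspe1, and the 3 right of it reach 90.9 and 17.3 CPM.

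The next comparison asked what 200 mg/kg BIO 300 changed in irradiated mice. No member passed against irradiated vehicle-treated mice, where 0% of all genes were called and 0% had an adjusted p under 0.05. By edgeR 1 of 10 members (Hspb1) had an unadjusted p under 0.05, beside 2.76% of all genes, and by DESeq2 0 had one, beside 1.23%, and 0 were called. Hspa1a ranged from 0.734 to 2.32 CPM (median 0.982) with BIO 300 and TBI, a log2 fold change of 0.43 ± 0.32 against vehicle with TBI. Hspa1b ranged from 2.24 to 3.44 CPM (median 2.61), a log2 fold change of 0.08 ± 0.20. The groups overlapped for all 10 genes. Hspb1 was the widest, at 0.465 to 15.3 CPM (median 0.671) against 0.377 to 1.35 CPM. Its top value belonged to mouse 57, which had Alb at 5620 CPM and also the highest Hspd1 (75.4 CPM) and Hspe1 (17.3 CPM) of its group.

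Against unirradiated mice given 200 mg/kg on Day 1, the irradiated mice given 200 mg/kg again had higher inducible HSP70. Hspa1a lay between 0 and 0.383 CPM (median 0.199) without TBI, below all irradiated mice, and the log2 fold change was 2.35 ± 0.56 (adjusted p = 0.00743). Hspa1b lay between 0.325 and 1.86 CPM (median 1.01) without TBI, also without overlap, and the log2 fold change was 1.23 ± 0.34 (adjusted p = 0.0174). The median of all genes was 0.41 with TMM and 1.31 with total counts, and relative to it Hspa1a was 1.94 and 1.84 and Hspa1b 0.83 and 0.71 higher. Here too these distances hardly move by construction. These 2 members were called and both were higher, beside 20.6% of all genes called and 27.2% with an adjusted p under 0.05. Summed erythroid markers were 61900 to 274000 CPM with TBI and 277000 to 624000 CPM without it. Neutrophil markers summed to 1540 to 6150 against 433 to 974 CPM, and immediate early genes to 413 to 1090 against 118 to 215 CPM. The part of these in the members' values was not tested. Hspb1 had a log2 fold change of 2.70 ± 0.96 (adjusted p = 0.0517), which was 0.57 without mouse 57. Hspd1 and Hspe1 did not pass over all mice (-0.18 ± 0.55 and -0.37 ± 0.54). Without the mice rich in Alb, 4 members were called, 2 higher and 2 lower, beside 26.7% of all genes: Hspd1 fell by 1.26 ± 0.17 (adjusted p = 3.49e-05) and Hspe1 by 1.33 ± 0.29 (adjusted p = 0.00168).

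Whether BIO 300 at 200 mg/kg acted differently with and without TBI was tested as an interaction. No member passed, beside 29.6% of all genes called and 33.9% with an adjusted p under 0.05. By edgeR 1 member had an unadjusted p under 0.05, beside 44.0% of all genes, and by DESeq2 2 had one, beside 40.9%, and 0 were called. Hspb1 had the widest uncertainty in this test and moved from 0.80 over all mice to -1.59 (adjusted p = 0.0438) without mouse 57.

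At both 100 and 200 mg/kg on Day 1, Hsph1, Hsp90aa1 and Hspb1 passed the test against vehicle, with positive values under TMM. The scaling decides the sign of most of these changes. At 100 mg/kg the median log2 fold change of all genes was -0.38 with TMM and -1.76 with total counts, and at 200 mg/kg it was -0.48 and -1.96, so each change is given also relative to that median. Hsph1 ranged from 23.8 to 46.4 CPM (median 28.6) at 100 mg/kg, from 26.4 to 40.6 CPM (median 29.2) at 200 mg/kg and from 15 to 25.6 CPM (median 21.1) with vehicle. At 200 mg/kg the groups did not overlap. Its log2 fold changes were 0.71 ± 0.19 (adjusted p = 0.00534) and 0.69 ± 0.16 (adjusted p = 0.00201) with TMM, and the sign turned to -0.68 and -0.84 with total counts. Relative to the median of all genes they were 1.09 and 1.17 with TMM and 1.07 and 1.12 with total counts. A change of scaling moves all genes by about the same amount, so that these distances hardly move by construction.

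Hsp90aa1 behaved likewise, at 56.3 to 98.3 CPM (median 64.3) at 100 mg/kg and 62.5 to 81.3 CPM (median 71.5) at 200 mg/kg against 43.4 to 64.1 CPM (median 49.8) with vehicle. Both treated groups overlapped with vehicle. The log2 fold changes were 0.54 ± 0.15 (adjusted p = 0.00591) and 0.57 ± 0.11 (adjusted p = 5.59e-04) with TMM and -0.85 and -0.95 with total counts, and relative to the median of all genes 0.92 and 1.05 with TMM and 0.90 and 1.01 with total counts. Hspb1 ranged from 0.141 to 0.96 CPM (median 0.345) and from 0.108 to 0.969 CPM (median 0.425), against 0.063 to 0.211 CPM, with log2 fold changes of 1.32 ± 0.44 (adjusted p = 0.0162) and 1.62 ± 0.45 (adjusted p = 0.00593) with TMM and -0.07 and 0.20 with total counts. Without the mice rich in Alb the 100 mg/kg value was 0.68 ± 0.49 (adjusted p = 0.232) and the 200 mg/kg value 1.08 ± 0.44 (adjusted p = 0.0383).

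Hspa1b ranged from 0.437 to 2.21 CPM (median 1.26) at 100 mg/kg and 0.325 to 1.86 CPM (median 1.01) at 200 mg/kg, overlapping with 0.143 to 1.23 CPM in vehicle-treated mice. Its log2 fold changes were 1.34 ± 0.55 (adjusted p = 0.0443) and 1.20 ± 0.56 (adjusted p = 0.0722) with TMM, and 0.05 and -0.20 with total counts. The first call was lost in 9 of 12 fits that left out 1 mouse, with adjusted p from 0.00799 to 0.104. Hspa1a did not pass at either dose (1.12 ± 0.67 and 0.84 ± 0.66). Hspe1, the chaperonin lid, was lower at 200 mg/kg, at 2.82 to 9.48 CPM (median 6.7) against 9.06 to 11.9 CPM, a log2 fold change of -0.66 ± 0.22 (adjusted p = 0.0161) that was -0.18 relative to the median of all genes. Its partner Hspd1 did not pass (0.10 ± 0.14), and neither did Dnajb1, Hsp90ab1 or Hspa8 at either dose.

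In counts, 2 members were called higher and 0 lower at 100 mg/kg, beside 48.8% of all genes, and 1 higher and 0 lower at 200 mg/kg, beside 47.8%. With an adjusted p under 0.05 alone there were 4 and 4 members, beside 65.6% and 63.5% of all genes. With total counts 0 members were called higher and 5 lower at each dose, beside 66.3% and 68.6% of all genes. Without the mice rich in Alb 1 member (Hspa1b) was called at 100 mg/kg, beside 48.1%, and 2 (Hspa1b and Hspb1) at 200 mg/kg, beside 52.1%. The members' median log2 fold changes, 0.41 and 0.44 at these doses, were above the medians of all genes. All of these were fewer calls than the background share. In the same mice the summed level of 8 erythroid markers was 317000 to 586000 CPM at 100 mg/kg and 277000 to 624000 CPM at 200 mg/kg, against 78700 to 117000 CPM with vehicle, and its part in the members' values was not tested.

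**Figure D3:**
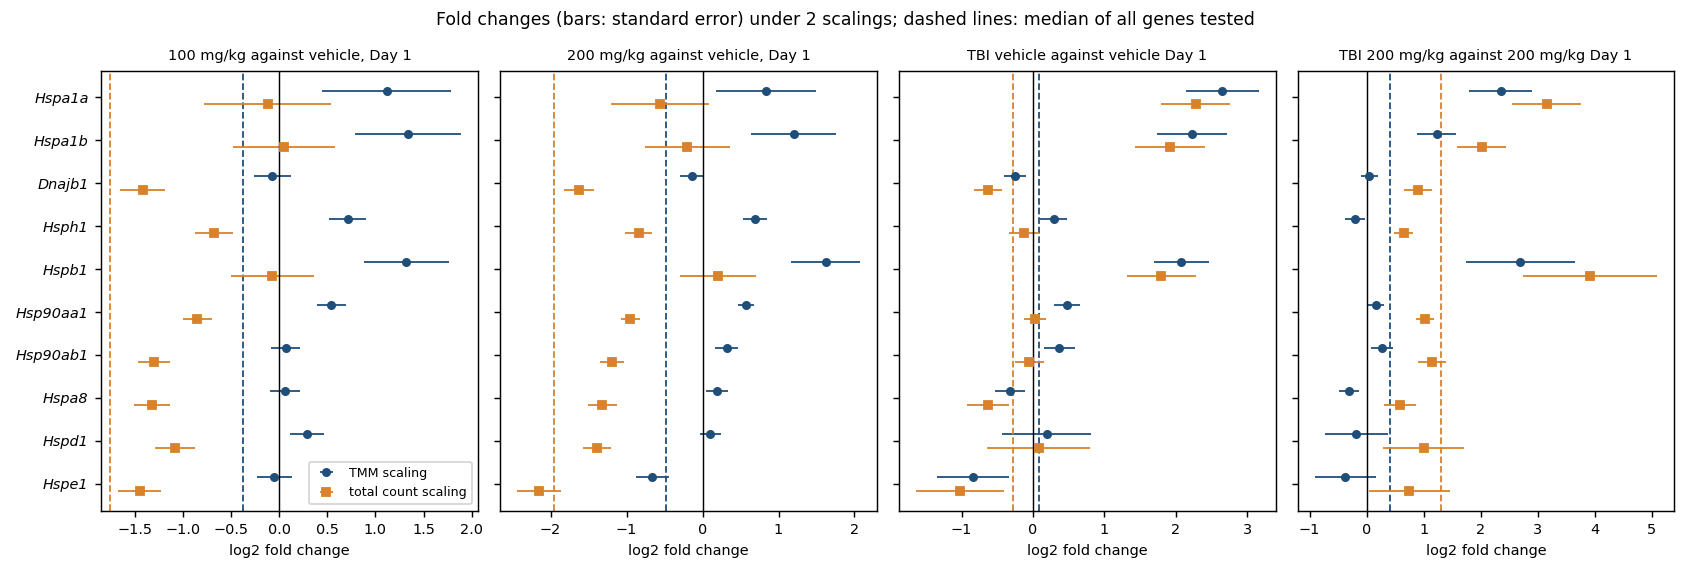
Log2 fold change with its standard error for each gene in 4 comparisons, with circles for TMM scaling and squares for total counts, and dashed lines at the median of all genes tested under each scaling. At 100 and 200 mg/kg on Day 1 the signs of Hsph1 and Hsp90aa1 turn with the scaling, which moves the dashed line along with the genes, and Hspa1a and Hspa1b after TBI lie above both dashed lines.

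On Day 1 no member at 50 mg/kg passed edgeR's test, where 0% of all genes were called and 0.00829% had an adjusted p under 0.05. By edgeR 7 of the 10 members had an unadjusted p under 0.05, beside 18.5% of all genes. DESeq2 gave an adjusted p under 0.05 to 2 members (Dnajb1 at 0.00319 and Hsph1 at 0.0254), beside 5.17% of all genes, and called 0, with no adjusted p for Hspa1a, Hspa1b and Hspb1. Hspa1a ranged from 0.294 to 0.744 CPM (median 0.506), against 0.0246 to 0.315 CPM (median 0.0684) with vehicle, a log2 fold change of 2.00 ± 0.48 (edgeR adjusted p = 0.0951). Only the lowest treated and highest vehicle-treated values crossed. Dnajb1, which starts the HSP70 cycle, ranged from 23 to 41.3 CPM (median 32.4), against 17.7 to 28.4 CPM (median 19.3), with 0.62 ± 0.14 (adjusted p = 0.0885), the highest group mean of this gene in the series. Hspa1b (1.48 ± 0.50, adjusted p = 0.152) and Hsph1 (0.59 ± 0.18, adjusted p = 0.134) also had positive values that did not pass. With TMM the median of the members was 0.37, and that of all genes -0.04. With total counts these medians were 0.07 and -0.36. By edgeR 2 members then had an unadjusted p under 0.05, beside 6780 of 24118 genes tested.

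On Day 0 few members differed from vehicle. Hspb1 was called lower at 50 mg/kg, at 0.0552 to 0.173 CPM (median 0.107) against 0.0347 to 1.05 CPM (median 0.392) in vehicle-treated mice, with a log2 fold change of -1.98 ± 0.60 (adjusted p = 0.0436). The groups overlapped, and the call was lost in 9 of 12 fits that left out 1 mouse and under 6 other settings. Hsp90aa1 had 39.7 to 53.3 CPM (median 44.2) against 47.4 to 82.9 CPM (median 59), with -0.48 ± 0.12 (adjusted p = 0.022) with TMM and 0.20 with total counts, where the median of all genes moved from 0.03 to 0.69. Thus 1 member was called lower and 0 higher, beside 4.50% of all genes, and 2 had an adjusted p under 0.05, beside 14.1%. The same mice had 4 of 8 erythroid and 5 of 8 platelet markers called lower, and the part of these in the members' values was not tested.

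At 100 mg/kg on Day 0 no member and 0% of all genes were called or passed by edgeR, with 2 members at an unadjusted p under 0.05 by edgeR (3.02% of all genes) and 2 by DESeq2 (2.75%), and 0 called by DESeq2. At 200 mg/kg on Day 0 the shares were 0% and 0%, with 0 members at an unadjusted p under 0.05 by either tool (9.01% and 9.16% of all genes) and 0 called by DESeq2. Between vehicle-treated mice on Day 1 and Day 0, 0% of all genes were called and 0% passed, with 2 members at an unadjusted p under 0.05 by edgeR (12.3% of all genes), 3 by DESeq2 (12.1%) and 0 called by DESeq2. The medians of the members in these 3 comparisons were -0.20, -0.18 and -0.14.

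Whether the effect of a dose differed between the days was tested directly, as the Day 1 change minus the Day 0 change. At 50 mg/kg 6 members passed and all were positive, with 17.5% of all genes passing, and 4 were called, beside 7.69%. They were Hspa1a (3.28 ± 0.77, adjusted p = 0.00353), Hspa1b (2.55 ± 0.77, adjusted p = 0.022), Hspb1 (2.25 ± 0.75, adjusted p = 0.0377) and Hsph1 (1.01 ± 0.25, adjusted p = 0.00572), with Hsp90aa1 (0.80 ± 0.17) and Hsp90ab1 (0.67 ± 0.19) passing below that fold. With total counts 1 member was called (Hspa1a, 2.41 ± 0.79, adjusted p = 0.0124), beside 40.2% of all genes, and the signs of Hsp90aa1 and Hsp90ab1 turned, to -0.18 and -0.31. Of 24 fits that left out 1 mouse, the call of Hspb1 was lost in 13 and that of Hsph1 in 9, while those of Hspa1a and Hspa1b were kept in all 24. At 100 mg/kg 3 members passed (54.2% of all genes) and 2 were called (42.0%): Hspb1 at 3.77 ± 0.92, Hsph1 at 1.03 ± 0.26 and, passing only, Hsp90aa1 at 0.93 ± 0.22. At 200 mg/kg 5 passed (48.8% of all genes) and 2 were called (36.7%): Hspb1 at 2.60 ± 0.91 and Hspa1b at 1.89 ± 0.73, with Hsph1 at 0.88 ± 0.23, Hsp90aa1 at 0.65 ± 0.18 and Hsp90ab1 at 0.49 ± 0.18 passing only. The signs of Hsph1 and Hsp90aa1 turned with total counts at both doses, to -0.46 and -0.56 at 100 mg/kg and -0.45 and -0.64 at 200 mg/kg, and that of Hsp90ab1 at 200 mg/kg to -0.79. With total counts 1 member was called higher and 5 lower at 100 mg/kg, beside 59.9% of all genes, and 0 higher and 3 lower at 200 mg/kg, beside 54.9%. Leaving out 1 mouse lost the call of Hsph1 at 100 mg/kg in 9 of 24 fits, and at 200 mg/kg that of Hspa1b in 11 and that of Hspb1 in 1. Hspb1 had few counts on Day 0, at 0 to 8 per mouse at 100 mg/kg and 1 to 25 with vehicle, so its differences are known only roughly. Its effect at 50 mg/kg was 0.28 ± 0.43 on Day 1 and -1.98 ± 0.60 on Day 0. At 100 mg/kg on Day 0 it was -2.46 ± 0.80, which did not pass. In vehicle-treated mice Hspb1 changed by -1.49 ± 0.58 from Day 0 to Day 1, which also did not pass. The vehicle groups enter each of these tests, so the 3 doses are not independent.

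A ratio of 2 members counted in the same library does not depend on the scaling between libraries. In all, 4 such log2 ratios were compared between groups of 6 in 11 comparisons with 2-sided exact permutation tests, adjusted over 44 tests, of which 10 had an adjusted p under 0.05; the smallest p these groups allow is 0.00216. The ratio of inducible Hspa1a to constitutive Hspa8 was -7.20 ± 0.67 (SD, n = 6, log2 scale) after TBI and -10.52 ± 1.15 in vehicle-treated mice on Day 1. The difference of 3.32 had an exact permutation adjusted p = 0.0159. Hspa1b to Hspa8 was -5.65 ± 0.46 after TBI and -8.65 ± 1.11 on Day 1, a difference of 3.00 (exact permutation adjusted p = 0.0159). Against Day 0 the differences were 2.58 and 2.80, and with 200 mg/kg in both arms 2.65 and 1.66, all with an exact permutation adjusted p = 0.0159. The level of Hspa8 enters these differences too. With TMM it changed by -0.32 ± 0.21 against Day 1, -0.12 ± 0.18 against Day 0 and -0.31 ± 0.17 with 200 mg/kg in both arms. None of these passed, although Hspa8 was lower against Day 1 without the mice rich in Alb, as given above. In the irradiated groups all mice lay above the comparison mice for both ratios.

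The first of these ratios was also higher at 50 mg/kg on Day 1 than with vehicle, though the groups overlapped. Its lowest value at 50 mg/kg was -9.13 and its highest with vehicle -8.90. Hspa1a to Hspa8 was -8.50 ± 0.39 (SD, n = 6) at 50 mg/kg, 2.02 above vehicle (exact permutation adjusted p = 0.0238), while Hspa1b to Hspa8 was 1.47 above it (exact permutation adjusted p = 0.0762), or 1.81 without the mice rich in Alb (exact permutation adjusted p = 0.0476). At 100 mg/kg on Day 1 the inducible Hsp90aa1 gained on the constitutive Hsp90ab1, with -1.13 ± 0.34 against -1.57 ± 0.14 (SD, n = 6) in vehicle-treated mice, a difference of 0.44 (exact permutation adjusted p = 0.0238) that was 0.48 without the mice rich in Alb (exact permutation adjusted p = 0.0698). At 200 mg/kg that difference was 0.24 (exact permutation adjusted p = 0.0733), and Hspa1b to Hspa8 differed by 1.30 (exact permutation adjusted p = 0.0896). Hspd1 to Hspe1, the barrel and the lid, was 1.88 ± 0.48 (SD, n = 6) at 200 mg/kg on Day 1 and 1.79 ± 0.50 after TBI, against 1.02 ± 0.21 in vehicle-treated mice on Day 1, differences of 0.86 and 0.77, each with an exact permutation adjusted p = 0.0286. Without the mice rich in Alb these last differences were 0.87 and 0.67, with exact permutation adjusted p = 0.0698 and 0.0873.

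**Figure D4:**
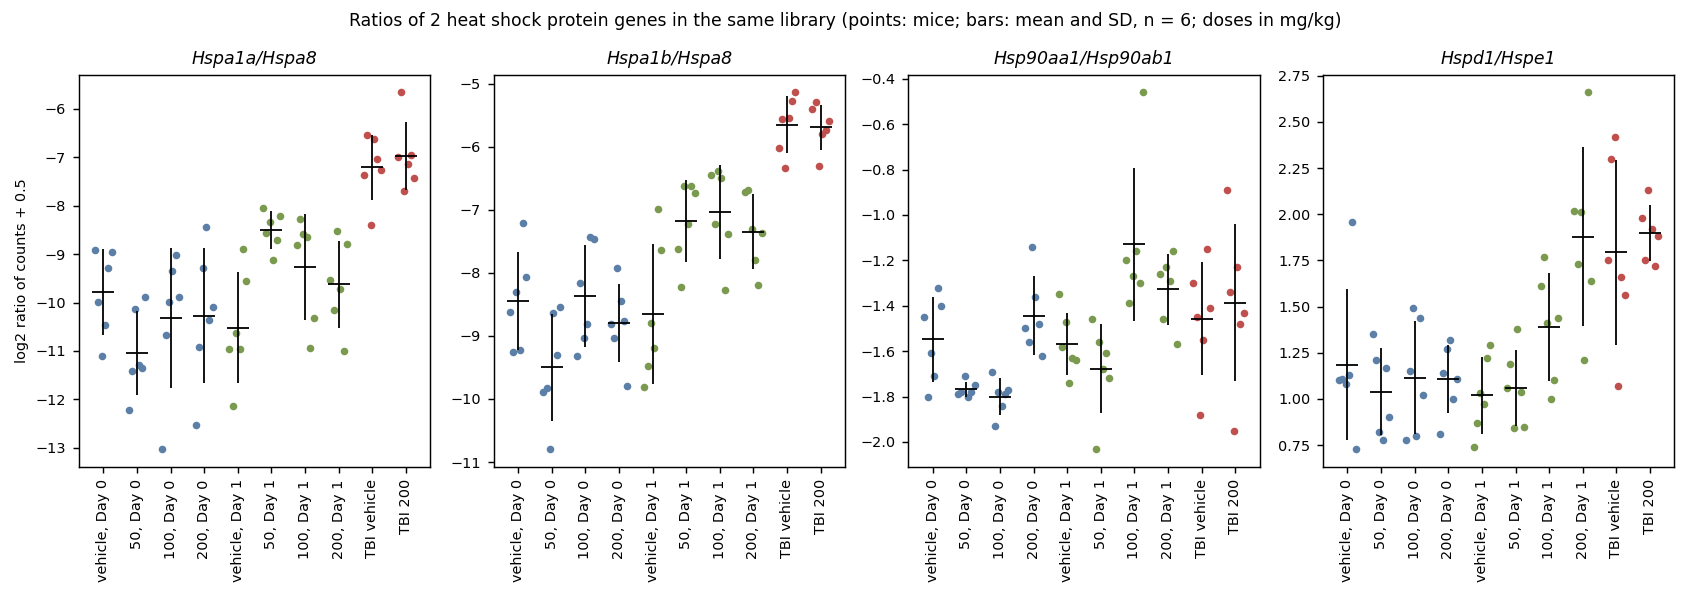
Log2 ratio of counts (with 0.5 added to each) of 2 genes in the same library for 4 gene pairs in 10 groups, with points for mice and bars for the mean and SD of 6 mice. Hspa1a to Hspa8 and Hspa1b to Hspa8 stand highest in the irradiated groups, at means of -7.20 and -5.65 with vehicle, and Hspd1 to Hspe1 is highest at 200 mg/kg with and without TBI, at means of 1.89 and 1.88.

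Other chaperone genes were counted from lists set by family and role, 88 genes in all, so that the members could be read beside their partners. After TBI with vehicle, 10 of 86 tested were called higher and 9 lower against Day 1, and 6 of 85 higher and 8 lower against Day 0, lower shares than the 36.0% and 26.9% of all genes. Bag3, a co-chaperone that links HSP70 to small heat shock proteins and autophagy, was 29.4 to 67.9 CPM (median 34.5) after TBI and 5.32 to 9.21 CPM (median 6.8) with vehicle on Day 1, with a log2 fold change of 2.47 ± 0.24 (adjusted p = 1.21e-05). Hsbp1, which encodes a protein that binds heat shock factor 1, rose by 1.37 ± 0.21 (adjusted p = 2e-04), and Dnajc2, a ribosome-associated J-domain protein gene, fell by 1.64 ± 0.20 (adjusted p = 4.55e-05). Of the 8 subunits of the cytosolic chaperonin CCT, which folds actin and tubulin, 4 were called lower and 0 higher after TBI with vehicle. Their median was -0.98 against Day 1 and -0.94 against Day 0. With 200 mg/kg in both arms 1 was called lower, with a median of -0.66. Of other small heat shock proteins, 3 of 7 tested were called higher against Day 1 and 0 of 6 against Day 0. Of the list of heat shock factors, 2 of 5 tested were called higher and 1 lower against either day. The part of the lower B cell and T cell markers in these values was not tested.

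At 100 and 200 mg/kg on Day 1, 12 of 84 and 15 of 83 other chaperone genes were called higher and 7 and 13 lower, lower shares than the 48.8% and 47.8% of all genes. Bag1, a nucleotide exchange factor of HSP70, had 383 to 557 CPM (median 443) and 351 to 816 CPM (median 564), against 74.8 to 131 CPM (median 97.7) with vehicle, log2 fold changes of 2.26 ± 0.15 (adjusted p = 3.27e-08) and 2.56 ± 0.21 (adjusted p = 1.12e-07). Bag3 rose at both doses, by 2.03 ± 0.21 and 1.93 ± 0.20. These stayed positive with total counts, at 0.87 and 1.00 for Bag1 and 0.65 and 0.41 for Bag3. The summed erythroid markers of these mice were 317000 to 586000 and 277000 to 624000 CPM, against 78700 to 117000 CPM with vehicle. A change of scaling does not remove a difference in cell types, and the part of these markers in the values of Bag1 and Bag3 was not tested. At 50 mg/kg on Day 0, 0 of 84 were called higher and 4 lower, beside 4.50% of all genes. Among them were Bag1 (-1.26 ± 0.21) and the J-domain protein genes Dnaja4 (-1.69 ± 0.27) and Dnajb6 (-1.24 ± 0.20). The summed erythroid markers were 30100 to 108000 CPM there, against 87800 to 163000 CPM with vehicle on Day 0, and their part was not tested. Between irradiated and unirradiated mice given 200 mg/kg, 4 of 86 were called higher and 5 lower, beside 20.6% of all genes, with Bag1 (-1.77 ± 0.28), Dnaja4 (-1.70 ± 0.29) and Dnajb6 (-1.69 ± 0.21) lower after TBI.

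Within groups, some members varied together across mice. As a description over 60 mice that share their group's treatment and each library's depth and composition, and after subtracting each group mean, Hspd1 and Hspe1 had a Pearson r of 0.89 (0.75 in the 49 mice without abundant Alb). Hsph1 with Hsp90aa1 had 0.75, Hspa1b with Dnajb1 0.74, Hspb1 with Hspd1 0.72 (0.45 without those mice) and Hsp90aa1 with Hsp90ab1 0.70. Among 6732 genes with a mean of at least 10 CPM, the non-member most like Hsph1 was Stip1 (0.71), whose product bridges HSP70 and HSP90. Dnajb1 was most like Ccdc117 (0.71), Sik1 (0.64) and the J-domain protein gene Dnaja1 (0.61), and Hspa1b was most like Ccdc117 (0.57), Dnaja1 (0.54) and Sik1 (0.54). For Hspa1a, with few counts, the highest values were 0.42 for Mob1a, 0.41 for L3mbtl3 and 0.40 for Usp1.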

How the data were processed

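Whole blood RNA of 60 mice was sequenced. Per the study's methods, blood was collected into PAXgene tubes, and the libraries were stranded and made from total RNA after removal of ribosomal and globin transcripts, whereas the labels name poly(A) selection. Per the submitters' processing notes, the authors used Trimmomatic 0.36 for trimming, STAR 2.5.2b for alignment to GRCm38 and Subread 1.5.2 to count uniquely mapped reads per gene. The annotation release was not given in the sources used here. The deposited count tables hold these whole-number counts without normalization. The authors' DESeq2 tables also hold normalized signal, counts divided by 1 size factor per mouse, used only to check columns, and log2 fold changes, p-values and adjusted p-values, which were not used.

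Each mouse was grouped by its label, doses came from the study's methods, and repeated columns held identical counts. The smallest chi-square per degree of freedom between 2 mice of a group was 10.8, so no library repeated another within a group.

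Each comparison was fitted with edgeR 4.0.16 in R 4.3.3 (limma 3.58.1) after dropping genes whose counts added up to less than 10 in the mice compared, using TMM scaling and p-values adjusted by Benjamini-Hochberg over all genes tested. A call needed both an adjusted p below 0.05 and a log2 fold change beyond 1 in either direction, as in the study's methods. Interactions were contrasts of 4 groups. Levels are CPM with TMM over all 60 mice, and library totals of 15099415 to 45589415 counts set their precision. Ratios used exact permutation tests with 0.5 added to each count. Alternatives were DESeq2 1.42.0, total counts, other filters, a fit of all mice, odd or even animal number as a term, the summed HSP70 pair, leaving out mice rich in Alb and leaving out each mouse. Both tools were tested on simulated counts, in which the changed genes had mean levels above those of Hspa1a and Hspb1. Genes at such low levels were therefore not covered by these simulations.

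All 10 members were named in every comparison. From the other chaperone lists, at most 3 called genes per comparison were named, ranked by the size of the log2 fold change among genes without overlap that averaged 10 CPM or more in either group. For 4 members, the 3 genes with the highest Pearson r of log2(CPM + 1) within groups were named. The members and lists were chosen with earlier results of these data known. Figures were drawn with matplotlib 3.10.9 in Python 3.11.15.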

Additional observations from a re-analysis of the deposited data

Results flagged for a closer look

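Of 100 sets of 6 mice (10 genes in 10 groups), 10 had 1 mouse that stood apart on the log2(CPM + 1) scale, and chance alone gives about 1 in 20. Of these, 5 belonged to mice with abundant Alb. Mouse 57, irradiated and given 200 mg/kg, had Hspb1 at 15.3 CPM (group median 0.671), Hspd1 at 75.4 CPM (9.14) and Hspe1 at 17.3 CPM (2.58). Mouse 51, irradiated and given vehicle, had Hspa8 at 231 CPM (114), and mouse 17, given vehicle on Day 0, had Hspd1 at 51.3 CPM (19.1).

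The others had little Alb. They were mouse 56 with Hspa1a at 2.32 CPM (0.982) and mouse 55 with Hsp90ab1 at 113 CPM (244), both irradiated and given 200 mg/kg, mouse 18 with Dnajb1 at 24 CPM (19.4) among vehicle-treated mice on Day 0, mouse 7 with Hsph1 at 13.1 CPM (17.9) at 100 mg/kg on Day 0, and mouse 22 with Hspe1 at 6.44 CPM (8.93) at 200 mg/kg on Day 0.

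Of 40 edgeR tests of a difference between effects, 14 had an adjusted p under 0.05. All 14 compared the effect of a dose on Day 1 with that on Day 0. By dose, 6, 3 and 5 of 10 members had one at 50, 100 and 200 mg/kg, beside 17.5%, 54.2% and 48.8% of all genes. For TBI minus no TBI 0 members had one, beside 33.9%. Several of the signs turned with total counts, as given below. At 50 mg/kg the log2 differences were 3.28 for Hspa1a, 2.55 for Hspa1b, 1.01 for Hsph1, 2.25 for Hspb1, 0.80 for Hsp90aa1 and 0.67 for Hsp90ab1. At 100 mg/kg they were 1.03 for Hsph1, 3.77 for Hspb1 and 0.93 for Hsp90aa1. At 200 mg/kg they were 1.89 for Hspa1b, 0.88 for Hsph1, 2.60 for Hspb1, 0.65 for Hsp90aa1 and 0.49 for Hsp90ab1.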

How the results depend on the processing

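Depth limits Hspa1a, Hspa1b and Hspb1, which had few counts in most unirradiated mice. The scaling limits the signs that turned with total counts, given below. No paired analysis was possible because the animal numbers are unique to each mouse. Where a sign or count changed below, the cause was not tested beyond the setting itself.

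Scaling to total counts changed the sign of 60 of 150 log2 fold changes of members, in 32 of which the value under either scaling had an adjusted p under 0.05. At 100 mg/kg on Day 1 these 32 became -0.85 for Hsp90aa1, -1.30 for Hsp90ab1, -1.32 for Hspa8, -0.07 for Hspb1, -1.08 for Hspd1 and -0.68 for Hsph1, and at 200 mg/kg -0.95 for Hsp90aa1, -1.19 for Hsp90ab1, -1.32 for Hspa8, -1.39 for Hspd1 and -0.84 for Hsph1. At 50 mg/kg on Day 0 they became 0.20 for Hsp90aa1, 0.43 for Hsp90ab1 and 0.66 for Hspa8. For Day 1 minus Day 0 they became -0.18 (Hsp90aa1), -0.31 (Hsp90ab1), -0.72 (Hspa8) and -0.94 (Hspe1) at 50 mg/kg, -0.56 (Hsp90aa1), -1.26 (Hsp90ab1), -1.46 (Hspa8), -1.00 (Hspd1), -1.45 (Hspe1) and -0.46 (Hsph1) at 100 mg/kg, and -0.64 (Hsp90aa1), -0.79 (Hsp90ab1), -1.02 (Hspa8), -0.84 (Hspd1) and -0.45 (Hsph1) at 200 mg/kg. Hsph1 became 0.65 between irradiated and unirradiated mice given 200 mg/kg, and for TBI minus no TBI Hsp90aa1 became 1.00 and Hsph1 0.77. Without the mice rich in Alb 15 signs turned, 2 of them with an adjusted p under 0.05 in either fit: Hspd1 after TBI with vehicle was -1.43 against Day 1 and -1.27 against Day 0.

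Members called at 100 mg/kg on Day 1 (2) became 1 with filterByExpr, with no filter and in the fit of all 60 mice. They also became 1 with odd or even number as a term and without the mice rich in Alb. With total counts there were 5, all lower, beside 66.3% of all genes. At 200 mg/kg (1) there were 2 with DESeq2 and 2 without the mice rich in Alb. With total counts there were 5, all lower, beside 68.6% of all genes. At 50 mg/kg on Day 0 (1) there were 0 in each of filterByExpr, no filter, the fit of all 60 mice, odd or even number, total counts and without the mice rich in Alb. For Day 1 minus Day 0, 50 mg/kg (4) became 2 with filterByExpr and 1 with total counts. It became 3 in the fit of all 60 mice and 3 without the mice rich in Alb. The count at 100 mg/kg (2) became 1 with the fit of all 60 mice, 1 with no filter and 3 with DESeq2. With total counts it became 6, 1 higher and 5 lower, beside 59.9% of all genes. The count at 200 mg/kg (2, both higher) became 1 with filterByExpr and 1 without the mice rich in Alb. With total counts it became 3, all lower, beside 54.9% of all genes. Between irradiated and unirradiated mice given 200 mg/kg (2) there were 3 with filterByExpr, no filter or all 60 mice fitted. There were 5 with total counts, all higher, beside 9100 genes called higher and 223 lower of 23610 tested. Without the mice rich in Alb there were 4, 2 higher and 2 lower, beside 26.7% of all genes. For TBI minus no TBI (0) there were 3 with total counts, all higher. Beside them 11725 genes were called higher and 483 lower of 26875 tested. After TBI with vehicle there were 5 against Day 1 (3) and 4 against Day 0 (2) without the mice rich in Alb. With filterByExpr 2 of the 9 members tested were called against Day 1.

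Leaving out 1 mouse at a time gave 0 to 2 calls on Day 1 for 100 mg/kg and 1 to 2 for 200 mg/kg, 0 to 1 on Day 0 for 50 mg/kg, and 2 to 4, 1 to 2 and 0 to 2 for Day 1 minus Day 0 at 50, 100 and 200 mg/kg. It gave 2 to 4 calls between irradiated and unirradiated mice given 200 mg/kg and 0 to 1 for TBI minus no TBI, where Hspb1 ranged from -1.59 to 1.21. In the first of these Hspd1 and Hspe1 became called without mouse 57 and Hspb1 without mouse 55, 56, 58 or 60, and in the second Hspb1 was called without mouse 57. Without mouse 51, Hspe1 after TBI with vehicle was called, at -1.45 against Day 1 and -1.27 against Day 0. The calls of Hspa1a and Hspa1b after TBI, with vehicle or 200 mg/kg, held in 12 of 12 such fits, as did Hspb1 after TBI against Day 1.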
